A study of Mus musculus with 6 samples.

Results

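The genes described here are the enzymes that place and remove N6-methyladenosine (m6A) on RNA and the YTH proteins that bind it, measured in BMDMs, mouse macrophages that were differentiated in culture from bone marrow. They were chosen by name, and all 10 were found among the 16519 genes of the count table: the writers Mettl3, Mettl14 and Wtap, the erasers Alkbh5 and Fto, and the readers Ythdf1, Ythdf2, Ythdf3, Ythdc1 and Ythdc2. Bulk RNA sequencing compared 3 libraries of cells from Trmt61af/fLysmCre mice (KO), which carry floxed Trmt61a and a Cre recombinase driven by the lysozyme gene Lyz2, with 3 libraries from Trmt61af/f mice (WT), which carry the floxed gene without Cre. Trmt61a encodes the catalytic subunit of the tRNA N1-methyladenosine (m1A) writer. Both genotypes thus share the floxed alleles, and Cre is present in KO alone, so that loss of Trmt61a and presence of Cre cannot be told apart. The sources used here do not give age, sex, any stimulus, or whether replicate libraries stem from different mice or cultures. The p-values therefore cover the spread among these libraries only, and that spread may be technical.

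m6A is the most common internal modification of messenger RNA. METTL3 is the catalytic subunit of the writer, METTL14 is its RNA-binding partner in a heterodimer, and WTAP anchors the pair in nuclear speckles, while ALKBH5 and FTO are oxygenases that remove the methyl group. The reader proteins hold the modified base in a YTH domain: the YTHDF proteins are cytoplasmic and are known for directing messages to decay, YTHDC1 is nuclear and acts on splicing and export, and YTHDC2 is an RNA helicase best known from germ cells. In macrophages this pathway is known for limiting or tuning innate immune messages. The gene annotation deposited with the counts lists 7 genes under binding of m6A-containing RNA, 5 of them being the YTH readers, and 8 genes under the m6A methyltransferase complex, 3 of them being Mettl3, Mettl14 and Wtap.

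The YTHDF genes are close paralogs, so their coding sequences are shown first, because the separate counts rest on how far reads can tell them apart. The stretch of 90 bases most alike between them holds 67 bases (74.4%) that are the same in all 3 genes. It is given here 5′ to 3′ from GENCODE M21 transcripts (GRCm38), with capitals marking the bases shared by all 3:
Ythdf1: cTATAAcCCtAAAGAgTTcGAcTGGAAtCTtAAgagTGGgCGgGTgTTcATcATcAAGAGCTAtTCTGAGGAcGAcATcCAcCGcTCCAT
Ythdf2: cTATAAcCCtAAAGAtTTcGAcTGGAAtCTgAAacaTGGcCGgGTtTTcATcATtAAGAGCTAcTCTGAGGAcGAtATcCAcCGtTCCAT
Ythdf3: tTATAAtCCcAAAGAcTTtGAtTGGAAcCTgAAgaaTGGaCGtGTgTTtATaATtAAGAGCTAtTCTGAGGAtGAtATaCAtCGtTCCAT
The stretch covers bases 1128 to 1217 of the Ythdf1 coding sequence, 1191 to 1280 of Ythdf2 and 1209 to 1298 of Ythdf3, counted from the start codon. Over the aligned coding sequences, Ythdf1 and Ythdf2 were 67.6% identical, Ythdf1 and Ythdf3 69.5%, and Ythdf2 and Ythdf3 69.3%. The longest run that any pair of these coding sequences shared without a difference was 22 bases, between Ythdf1 and Ythdf2 (ATTGCTAGCAAGCCTGCAAAAC). A separate search over the whole of the longest coding transcripts found no window of 50 bases common to a pair.

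Some members share 50-base windows with genes outside the set, which no pair of the YTHDF transcripts does. Of the 50-base windows in the longest coding transcript, 18.2% for Ythdc1 also lay in the noncoding gene Gm43055 and 13.8% for Mettl3 in Tox4, which encodes a chromatin protein and is transcribed from the opposite strand. The share was 9.02% for Wtap and 8.55% for Ythdf2, in both cases in processed pseudogenes (Gm14292 and Gm7381 for Wtap, Gm6823 and Gm8401 for Ythdf2), and 2.15% for Fto, in an antisense gene. It was 0.33% for Alkbh5, spread over 541 genes, and 0 for Mettl14, Ythdf1, Ythdf3 and Ythdc2. Counts of Mettl3 and Fto are uncertain where such reads fall, because how strand was treated in counting was not given in the sources used here. Gm43055 lies on the same strand as Ythdc1, and the pseudogenes of Wtap and Ythdf2 are copies of sequence, so counts of these 3 members are uncertain there whatever the strand setting. Of the partners named, Tox4 alone has a row in the table; its counts-per-million (CPM) averaged 118 ± 2.68 in KO against 119.6 ± 2.15 in WT (SD, n = 3), a log2 difference of -0.02.

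The libraries held between 37021855 and 41033179 counts, and each member had between 670 and 6472 counts in each library. Trmt61a was at 0.530, 0.755 and 0.539 CPM in KO 1, KO 2 and KO 3 and at 4.96, 3.89 and 5.06 CPM in WT 1, WT 2 and WT 3 (log2 fold change -2.92, edgeR adjusted p = 0.00219). Its partner Trmt6 had a log2 fold change of -0.03, and Lyz2, which carries the Cre, -0.99 (edgeR adjusted p = 0.00735). All 7 macrophage markers looked for were present, with a summed level of 10256 to 11613 CPM in KO and 10492 to 11218 CPM in WT. Neutrophil markers (8 of 8 present) summed to 1607 to 2571 CPM in KO and 1617 to 2941 CPM in WT. Lymphocyte, dendritic cell, and mast cell and basophil markers each summed to at most 3.92 CPM in any library, and stromal markers to between 91.8 and 226 CPM. Erythroid and megakaryocyte markers, of which Pf4 was the most abundant, summed to 169 to 195 CPM in KO and 148 to 155 CPM in WT. In bulk RNA, fewer cells of a type and less RNA per cell cannot be told apart, and the part of these other cells in the values below was not tested.

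No m6A enzyme or YTH reader passed the test between the genotypes. Of the 10 members, 0 passed in the edgeR fit (quasi-likelihood; p adjusted by Benjamini-Hochberg over 12605 genes, threshold 0.05), where 0.0317% of all tested genes passed. The edgeR adjusted p was 0.999949 for each of them, and 0 had an unadjusted p under 0.05, which 3.10% of all tested genes had. DESeq2 and limma voom also called 0 members, against 0.114% and 0.0317% of the genes they tested. KO and WT values overlapped for all 10 members, while they were separate for 8.65% of tested genes. The fitted difference was above 0 for 5 members and below 0 for 5, with a median log2 fold change of 0.0067 beside 8.37e-05 over all tested genes. The median size of the log2 fold change, whatever its sign, was 0.055 for the members and 0.050 for the 5766 tested genes whose mean level lay within the members' range.

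The precision of the differences was as follows. The 95% interval of the difference lay within 1.2-fold in either direction for 9 of the 10 members, and the exception was Mettl14, whose interval reached down to 0.796 of the WT level. Such intervals were found for 66.0% of the 5766 genes of like abundance. The 1.2-fold bound was chosen after the intervals had been seen, and Alkbh5, whose upper limit was 1.199-fold, lies only just inside it. At a bound of 1.1-fold 0 of the 10 members lay inside, against 2.17% of the genes of like abundance, and at 1.3-fold 10 of 10 did, against 91.2%. These are intervals for single genes and not the limit of what the adjusted test could call. In simulated KO and WT counts edgeR called 4.1% of genes changed by 1.2-fold and 46.0% of those changed by 1.5-fold. The changed genes of the simulation were drawn from all tested genes, whatever their level. It gave 115 calls, against 4 in the data, and the adjusted threshold depends on how many genes pass. Its rates are therefore not rates for the members.

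**Figure D1:**
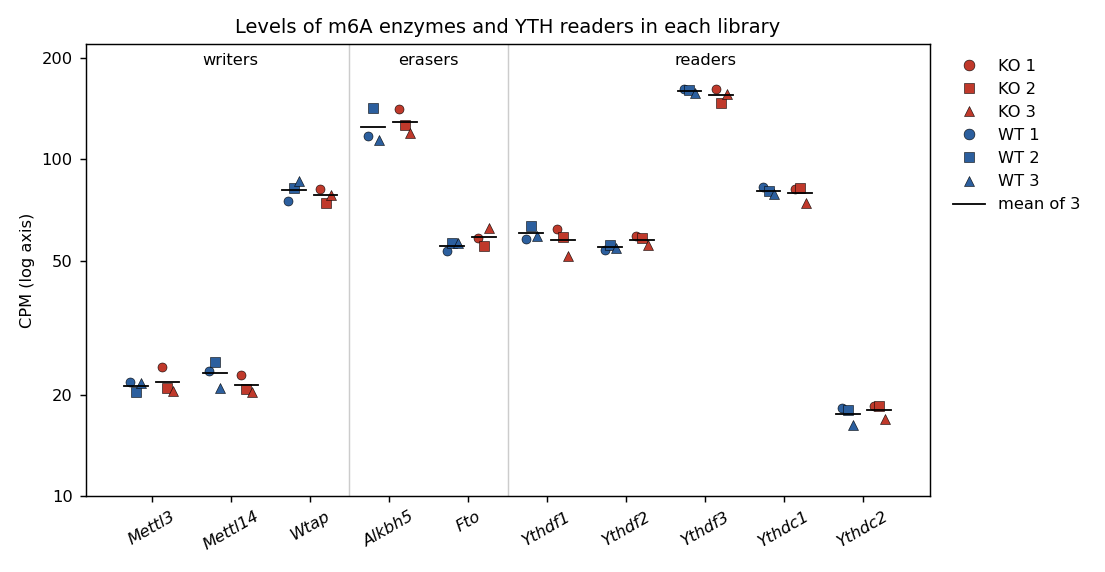
Levels of the 10 members in CPM (log axis) in each of the 3 KO libraries (red) and 3 WT libraries (blue), with circles, squares and triangles for replicates 1, 2 and 3 and lines for the mean of 3. KO and WT points overlap for each gene, from Ythdc2 near 18 CPM to Ythdf3 near 158 CPM.

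Among the writers, Mettl3 (Entrez Gene 56335, chromosome 14, 52294841 to 52305128, GRCm38) was at 24.2, 20.9 and 20.5 CPM in KO 1, KO 2 and KO 3 and at 21.8, 20.4 and 21.7 CPM in WT 1, WT 2 and WT 3. KO 1 was the highest library, and the other KO libraries lay among the WT values. On average it reached 21.9 ± 2.02 CPM in KO against 21.3 ± 0.781 CPM in WT (SD, n = 3), so the log2 difference was 0.04 (95% interval -0.17 to 0.24). Without KO 1 the log2 fold change was -0.04, so the sign rests on that library.

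Mettl14 (Entrez Gene 210529, chromosome 3, 123368297 to 123386108) had the largest difference of the 10 members, still within the spread. It was at 22.8, 20.7 and 20.4 CPM in KO 1, KO 2 and KO 3 and at 23.5, 24.97 and 21.0 CPM in WT 1, WT 2 and WT 3. WT 3 lay below KO 1, so the genotypes overlapped, while KO 2 and KO 3 were the lowest libraries. KO stood at 92.03% of the WT mean, a log2 difference of -0.12 (95% interval -0.33 to 0.09; unadjusted edgeR p = 0.234; exact two-sided permutation p = 0.2). The negative sign was kept in each of 14 alternatives, with values from -0.18 to -0.07.

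Wtap (Entrez Gene 60532, chromosome 17, 12966796 to 12994169), the adaptor, was the most abundant writer in counts. Its level was 81.8, 74.2 and 78.6 CPM in KO 1, KO 2 and KO 3 and 75.4, 82.4 and 85.9 CPM in WT 1, WT 2 and WT 3. High and low libraries occurred in both genotypes, with WT 3 highest and KO 2 lowest. The log2 difference was -0.06 (95% interval -0.21 to 0.10).

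Of the erasers, Alkbh5 (Entrez Gene 268420, chromosome 11, 60536381 to 60558512) varied most between libraries of all 10 members, and it did so within each genotype. It was at 141, 127 and 119 CPM in KO 1, KO 2 and KO 3 and at 117, 142 and 114 CPM in WT 1, WT 2 and WT 3. WT 2 and KO 1 were the high libraries and WT 3 the lowest, 1.245-fold below the highest. Its average was 129 ± 11.1 CPM in KO against 124 ± 15.2 CPM in WT (SD, n = 3), a log2 difference of 0.05 (95% interval -0.15 to 0.26). Without KO 1 the log2 fold change was -0.02 and without WT 3 it was -0.0045.

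Fto (Entrez Gene 26383, chromosome 8, 91313525 to 91668439), which acts on m6A, on the cap-adjacent m6Am and on m1A in tRNA, was at 58.4, 55.4 and 62.4 CPM in KO 1, KO 2 and KO 3. In WT 1, WT 2 and WT 3 it was at 53.5, 56.3 and 56.4 CPM. KO 3 was highest and WT 1 lowest, and KO 2 lay below both WT 2 and WT 3. The log2 difference was 0.08 (95% interval -0.06 to 0.23; unadjusted edgeR p = 0.240; exact two-sided permutation p = 0.3). It was above 0 in each of 14 alternatives.

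The YTHDF readers stood at different levels, and each overlapped between the genotypes. Ythdf1 (Entrez Gene 228994, chromosome 2, 180904377 to 180920949), a cytoplasmic reader described as a promoter of translation, was at 62.0, 58.9 and 51.7 CPM in KO 1, KO 2 and KO 3 and at 58.1, 63.5 and 59.4 CPM in WT 1, WT 2 and WT 3. KO 3 alone stood below the rest. The log2 difference was -0.07 (95% interval -0.24 to 0.10), and 0.0025 without KO 3.

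Ythdf2 (Entrez Gene 213541, chromosome 4, 132184912 to 132212303), which recruits the CCR4-NOT deadenylase to its target messages, had the narrowest range of the 10 members. It was at 59.1, 58.5 and 55.7 CPM in KO 1, KO 2 and KO 3 and at 53.9, 55.8 and 54.6 CPM in WT 1, WT 2 and WT 3. KO 1 and KO 2 were the highest libraries, and KO 3 lay just below WT 2, so the genotypes overlapped by a narrow margin. On average it reached 57.8 ± 1.83 CPM in KO against 54.8 ± 0.995 CPM in WT (SD, n = 3), so the log2 difference was 0.08 (95% interval -0.06 to 0.21; unadjusted edgeR p = 0.241; exact two-sided permutation p = 0.2). It stayed between 0.06 and 0.10 in all 14 alternatives.

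Ythdf3 (Entrez Gene 229096, chromosome 3, 16183212 to 16217037), which works together with the other YTHDF proteins, had the highest count of all members. Its level was 162, 147 and 157 CPM in KO 1, KO 2 and KO 3 and 162, 161 and 158 CPM in WT 1, WT 2 and WT 3. The WT libraries were close together, and the KO libraries reached from the highest to the lowest value. The log2 difference was -0.04 (95% interval -0.16 to 0.08).

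The YTHDC readers overlapped between the genotypes as well. Ythdc1 (Entrez Gene 231386, chromosome 5, 86804221 to 86836659), the nuclear reader, was at 81.4, 82.1 and 74.4 CPM in KO 1, KO 2 and KO 3 and at 82.7, 80.4 and 78.8 CPM in WT 1, WT 2 and WT 3. KO 3 was the lowest library and the other 5 lay within 3.88 CPM of each other. Its log2 difference was -0.02 (95% interval -0.16 to 0.11), and 0.02 without KO 3. Ythdc2 (Entrez Gene 240255, chromosome 18, 44827746 to 44889724), the helicase, was the member with the fewest counts, at 18.5, 18.6 and 17.0 CPM in KO 1, KO 2 and KO 3 and 18.3, 18.0 and 16.3 CPM in WT 1, WT 2 and WT 3. Replicate 3 was the lowest in both genotypes. The log2 difference was 0.04 (95% interval -0.17 to 0.25), and -0.01 without WT 3.

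**Figure D2:**
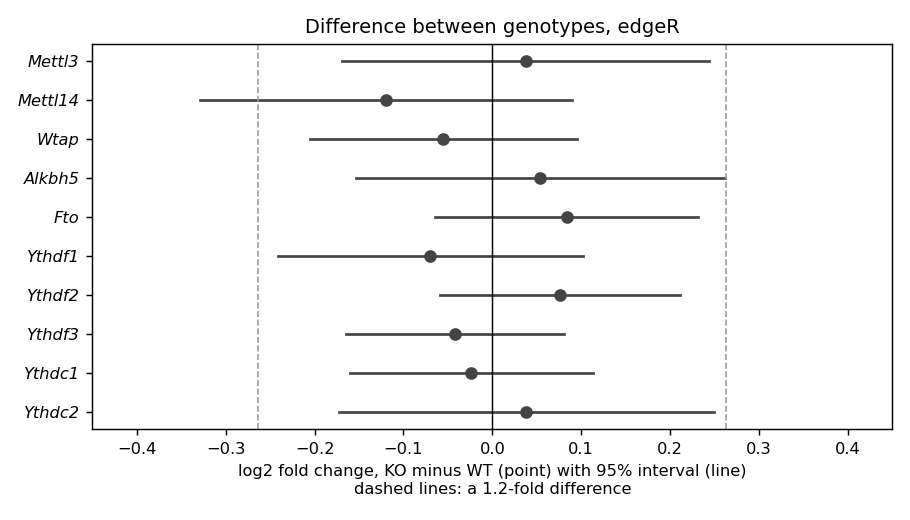
Log2 fold change of KO minus WT for each member (point) with its 95% interval (line), from edgeR; dashed lines mark a 1.2-fold difference. Each interval spans 0, and that of Mettl14 alone reaches past a dashed line, at -0.33.

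Levels of different genes are compared per length, as CPM divided by the kilobases of the longest coding transcript (RPKM), averaged over the 6 libraries. Ythdf3 was highest at 30.9 ± 1.08 RPKM (SD, n = 6), and no library of the next gene reached its lowest value. Wtap at 25.02 ± 1.41, Ythdc1 at 24.5 ± 0.937 and Alkbh5 at 22.1 ± 2.13 RPKM followed, each overlapping the next over the libraries. Ythdf1 at 18.5 ± 1.28 RPKM overlapped Alkbh5 and was separate from Ythdf2, at 13.6 ± 0.507 RPKM. Fto at 12.1 ± 0.647 RPKM overlapped Ythdf2 above and Mettl3 below, the latter at 10.7 ± 0.693 RPKM. Mettl14 at 3.09 ± 0.253 RPKM and Ythdc2 at 2.46 ± 0.127 RPKM stood last, each separate from its neighbours.

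This order depends in its middle on the length used. With the union of all annotated exons as the length, Ythdf3 stayed first and Fto, Mettl3, Mettl14 and Ythdc2 kept places 7 to 10. Wtap moved from place 2 to 4 and Ythdc1 from 3 to 6, while Alkbh5 moved from 4 to 2, Ythdf1 from 5 to 3 and Ythdf2 from 6 to 5. The exons of Wtap add up to 6248 bases against 3187 in its longest coding transcript, and those of Ythdc1 to 13651 against 3269. Gene counts do not show which transcripts were made.

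The balance between partners was compared with counts per kilobase in each library. Mettl3 to Mettl14, the subunits of the heterodimer, stood at 3.76, 3.58 and 3.57 in KO 1, KO 2 and KO 3 and at 3.29, 2.90 and 3.67 in WT 1, WT 2 and WT 3. WT 2 was the lowest and WT 3 lay among the KO values, so the ratio overlapped (exact two-sided permutation p = 0.3, adjusted p = 0.6 over 4 such values). The height of this ratio rests on the 7197-base Mettl14 transcript taken as its length, and with union exons it was 1.496 in KO and 1.35 in WT.

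The ratio of Wtap to Mettl14 was 8.29 ± 0.355 in KO and 7.98 ± 1.10 in WT (SD, n = 3; exact two-sided permutation p = 0.6, adjusted p = 0.8). That of Alkbh5 to Fto, the erasers, was 1.81 ± 0.215 in KO and 1.84 ± 0.209 in WT (SD, n = 3; exact two-sided permutation p = 0.9, adjusted p = 0.9). With union exons the ratio of Wtap to Mettl14 was 4.36 and 4.19, and that of Alkbh5 to Fto 4.80 and 4.88. The difference in the ratio of Wtap to Mettl14 went from 0.06 to -0.0018 on the log2 scale without WT 1, and that of Alkbh5 to Fto from -0.02 to 0.07 without KO 3 and 0.06 without WT 2.

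Within the YTHDF family the Ythdf2 share did not overlap between the genotypes. Ythdf2 made up 21.8%, 23.0% and 22.3% of YTHDF counts per kilobase in KO 1, KO 2 and KO 3 and 20.7%, 20.8% and 21.1% in WT 1, WT 2 and WT 3. The closest values were those of KO 1 and WT 3. The means were 22.4% ± 0.596 in KO and 20.9% ± 0.191 in WT (SD, n = 3), a difference of 1.52 percentage points, with an exact two-sided permutation p = 0.1, the lowest that this design can give, and p = 0.4 when adjusted over the 4 values. Ythdf3 made up 48.7% ± 1.95 in KO and 49.3% ± 0.886 in WT, and Ythdf1 28.9% ± 1.74 and 29.8% ± 0.838 (SD, n = 3), both with overlapping libraries. Leaving out each library in turn gave a difference in the Ythdf2 share between 1.21 and 1.80 percentage points. Pseudogene reads of Ythdf2, whose part was not tested, bear on this share.

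**Figure D3:**
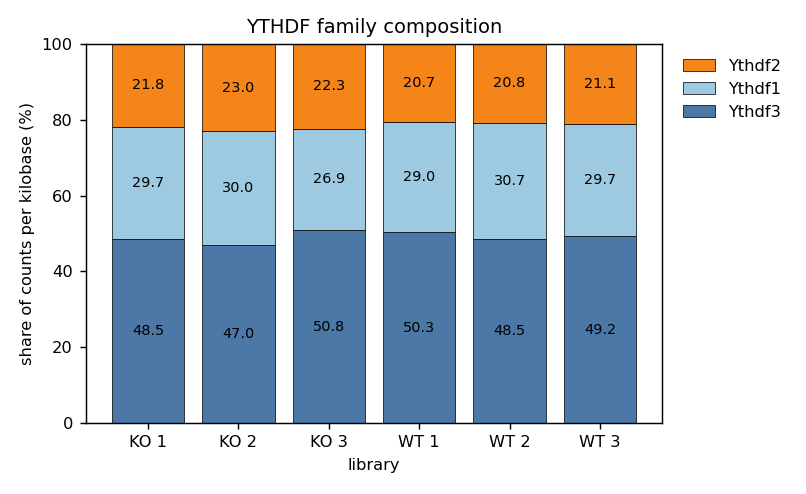
Share of Ythdf1, Ythdf2 and Ythdf3 in the summed YTHDF counts per kilobase (percent, from 0 to 100) in each library, KO on the left and WT on the right. Ythdf2, the top segment, takes 21.8% to 23.0% in KO and 20.7% to 21.1% in WT.

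The number of members above their own mean differed between libraries. In KO 1 all 10 members lay above their own mean of the 6 libraries, in WT 2 there were 7, in KO 2 and WT 1 5 each, in WT 3 3 and in KO 3 1, which was Fto. The median deviation of the members was 0.05 on the log2 scale in KO 1 and -0.07 in KO 3, where the median over all tested genes was 0.0012 and 0.0041. Scaling of the libraries holds that median over all genes near 0 in each of them. The share of all tested genes above their own mean in each library was not taken. These counts and deviations thus do not set the members apart from other genes. KO 1 and WT 2, in which most members were high, had the least cell cycle marker signal, at a summed 240 and 241 CPM of 6 markers, while KO 3 and WT 3 had the most, at 418 and 420 CPM. Neutrophil markers were likewise lowest in KO 1 and WT 2, at a summed 1607 and 1617 CPM, and highest in KO 3 and WT 3, at 2571 and 2941 CPM. KO 2, with 5 members above their mean against 1 in KO 3, was close to KO 3 in neutrophil markers, at 2523 CPM. Stromal markers were also lowest in KO 1 and WT 2, at 93.5 and 91.8 CPM, and lay between 144 and 226 CPM in the other libraries. They were highest in KO 2, at 226 CPM, against 188 CPM in KO 3, so the order of the libraries differed from that of the members. The part of these cell types or of the cell cycle in the member levels was not tested. Without KO 1 and WT 2 together, a choice made after seeing the data, 0 members passed and their median log2 fold change was -0.06. Without KO 1 alone the median was -0.04.

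**Figure D4:**
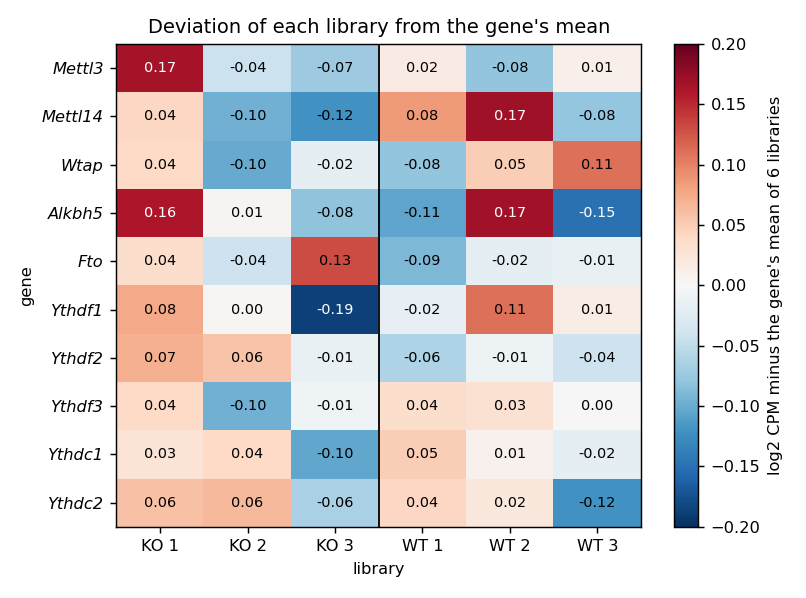
Log2 CPM of each member in each library minus that gene's mean of the 6 libraries (red above, blue below, value in each cell). The KO 1 column is above 0 for all 10 genes and the KO 3 column below 0 for 9 of them, while neither genotype stands out as a block.

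The range over the 6 libraries ran from 0.13 for Ythdf2 to 0.32 for Alkbh5 on the log2 scale, with a median of 0.22 beside 0.24 for the 5766 genes of like abundance. Members most alike in profile were Ythdc1 and Ythdc2, with a root mean square difference of 0.047 in centred log2 CPM over the 6 libraries. This measure is also small between genes that vary little, and the ranges of Ythdc1 and Ythdc2 were only 0.15 and 0.19. The value for this pair thus does not by itself show a shared pattern. Mettl14 and Fto were least alike, at 0.15. The 3 tested genes whose profile was nearest to Alkbh5, the member with the widest range, were Tfec, a transcription factor gene of the MiT family (0.019), Yaf2 (0.025) and Tbc1d14 (0.031), where the median over all tested genes was 0.17. Tfec was at 33.0, 29.3 and 27.1 CPM in KO 1, KO 2 and KO 3 and at 27.0, 32.8 and 25.5 CPM in WT 1, WT 2 and WT 3, so it too was highest in KO 1 and WT 2 and overlapped between genotypes. These likenesses rest on 6 libraries and on a search through all tested genes.

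The remaining genes of the pathway were given in 5 lists of 45 genes, of which 42 could be tested. In edgeR 0 of the 42 passed and 2 had an unadjusted p under 0.05, beside 0.0317% and 3.10% of all tested genes, and DESeq2 and limma voom called 0. KO and WT libraries did not overlap for 5 of the 42, beside 8.65% of all tested genes.

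The partners of the writer complex, Virma, Rbm15, Rbm15b, Zc3h13 and Cbll1, had log2 fold changes from -0.08 to 0.07 with a median of -0.0014 that ran from -0.05 to 0.04 as single libraries were left out. Cbll1, which encodes an E3 ubiquitin ligase, averaged 26.0 ± 3.32 CPM in KO against 24.8 ± 0.585 CPM in WT (SD, n = 3; log2 difference 0.07). Rbm15, an RNA-binding recruiter of the complex, had -0.08 and Zc3h13, a zinc finger scaffold, -0.02. The methyltransferases that act outside the complex, listed with the adaptor gene Trmt112, gave a median of -0.03 over 6 genes, 5 of them below 0. That median was -0.07 when KO 2 was left out and 0.0091 when both KO 1 and WT 2 were. Mettl5, which methylates 18S ribosomal RNA, averaged 4.20 ± 0.0401 CPM in KO against 5.002 ± 1.22 CPM in WT (SD, n = 3; log2 difference -0.25, standard error 0.21). Zcchc4, which methylates 28S ribosomal RNA, had -0.09, with every KO library under every WT library but by as little as 0.044 CPM at the closest, and Mettl4 had 0.06.

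Readers outside the YTH family had a median of 0.0024 over 11 tested genes, 6 above and 5 below 0. Elavl1, which encodes the message-stabilising protein HuR, was at 59.5, 60.3 and 58.3 CPM in KO 1, KO 2 and KO 3 and at 54.3, 52.4 and 56.0 CPM in WT 1, WT 2 and WT 3. Each KO library lay above each WT library, with a log2 fold change of 0.13 and an unadjusted edgeR p of 0.0559 (adjusted p = 0.999949). Igf2bp3 and Fmr1, both RNA-binding protein genes, had -0.26 and -0.09. Igf2bp1 had too few counts to be tested, at most 6 in a library.

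Genes for the partners of YTH proteins had a median of 0.0077 over 14 tested genes. Pop1, a subunit of RNase P and RNase MRP, enzymes through which YTHDF2 can cleave its targets, had one of the 2 unadjusted p-values under 0.05. It was at 9.65, 10.7 and 9.72 CPM in KO 1, KO 2 and KO 3 and at 7.37, 6.38 and 8.33 CPM in WT 1, WT 2 and WT 3. The KO libraries were all higher, with a log2 difference of 0.45 (standard error 0.15, exact two-sided permutation p = 0.1, unadjusted edgeR p = 0.0112, edgeR adjusted p = 0.999949). The CCR4-NOT subunits lay between -0.05 for Cnot3 and 0.04 for Cnot1, and the export factor gene Nxf1 had -0.08. Cnot7 was lower in each KO library, by as little as 0.0013 CPM at the closest for a log2 fold change of -0.03.

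Methyl donor supply had a median of 0.07 over 6 genes, which was 0.03 without WT 2. Mat1a, the liver form of methionine adenosyltransferase, was barely detected, with 5, 8 and 5 counts in KO 1, KO 2 and KO 3 and 34, 54 and 14 counts in WT 1, WT 2 and WT 3. The log2 difference of -2.49 (standard error 0.64) did not pass (exact two-sided permutation p = 0.1, unadjusted edgeR p = 0.00249, edgeR adjusted p = 0.999949). Mat2a, the form used outside the liver and itself an m6A-regulated message, had 0.10, Mat2b, its regulatory subunit, 0.12 and Ahcyl1 0.14, where WT 3 lay among the KO libraries for Ahcyl1.

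**Figure D5:**
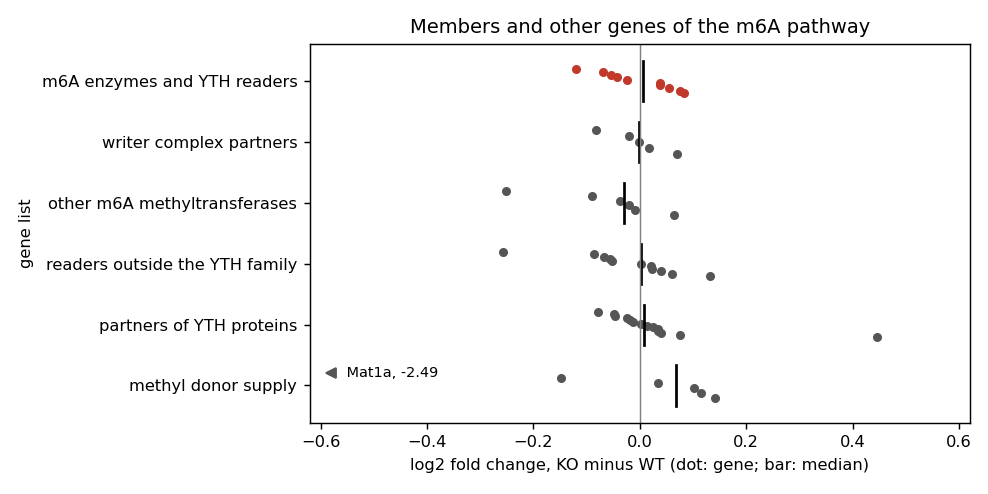
Log2 fold change of KO minus WT for the 10 members (red) and for the tested genes of 5 other m6A lists (grey), with each list's median as a bar. The points lie between -0.26 and 0.14 apart from Pop1 at 0.45 and Mat1a, drawn as an arrow at the left edge with its value of -2.49.

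For 7 of the 10 members the RefSeq promoter table of GRCm38.p6 held a window from 250 bases before to 50 after the start. These windows held between 17 (Mettl3) and 37 (Ythdf1) CpG dinucleotides in 300 bases, with a median of 32, beside a median of 7 over 27025 promoters. Those 27025 promoters were not limited to genes expressed in BMDMs, and no median over tested genes alone was taken. The values thus do not set the members apart from other expressed genes.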

How the data were processed

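Per the labels' protocols, RNA of the BMDMs was isolated with TRIzol and the VAHTS Universal V6 kit served for library building. The deposited file of the authors holds raw read counts for each gene in 6 libraries. The submitters' processing notes name fastp, HISAT2, HTSeq and mm10 (versions, annotation, strand setting, filters: not given in the sources used here). Groups came from the sample titles. A chi-square test of counts between replicates gave 11.4 to 34.2 per degree of freedom, so each library counted once.

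Counts were tested in R 4.3.3 with edgeR 4.0.16 (TMM factors, filterByExpr at a minimum count of 10, robust quasi-likelihood F test, legacy mode). Benjamini-Hochberg adjustment over 12605 genes was used at 0.05. Standard errors were taken from the log2 fold change and F. CPM uses TMM-scaled totals. For single values the exact permutation test was two-sided and cannot go below 0.1 here. Coordinates, lengths and sequences are from GENCODE M21 (GRCm38, the assembly of mm10), aligned with MAFFT 7.526; 10 of 10 members matched. Named genes were the members, Trmt61a, Trmt6 and Lyz2, the 3 smallest p of each list and the 3 profiles nearest to the member of widest range. Tox4, Igf2bp1, Cnot1, Cnot7, Mat2a and the marker Pf4 fall outside this rule and were named after their values were seen. Virma, Rbm15b and Trmt112 were named only as members of their lists. Members and lists were chosen with earlier results of these data known. In simulated KO and WT counts of 12475 genes, edgeR recovered 4.1% of genes changed by 1.2-fold, 46.0% of those changed by 1.5-fold, 76.0% of those changed by 2-fold and 87.8% of those changed by 4-fold; 9 of 115 calls were false, more than the 0.05 aimed at. The way dispersions were drawn in the simulation was changed once, after a first version gave a larger share of false calls. Alternatives were other normalizations, filters and tests (DESeq2 1.42.0, limma voom 3.58.1), a replicate block, other gene lengths and leaving out libraries.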

Additional observations from a re-analysis of the deposited data

How the results depend on the processing

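The number of members called was 0 in each of 14 alternatives, and the smallest adjusted p of any member in any of them was 0.913. The number of genes called over the whole table was 4, became 8 with the replicate block and 17 with DESeq2, and ran from 3 to 5 when each library was left out in turn. Whether equal replicate numbers mark paired samples is not stated in the sources used here. The correlation of deviations from the genotype mean was 0.03 for number 1, -0.13 for number 2 and 0.25 for number 3. KO 1 was closest to WT 2 (0.30). With 3 libraries per genotype, these correlations cannot decide whether the samples were paired. Under the replicate block 0 members and 0 genes of the other lists were called. The median log2 fold change of the members was 0.0067, became -0.058 when KO 1 and WT 2 were both left out, and ran from -0.042 to 0.030 over single libraries left out. Over single libraries left out, the log2 fold change ran from -0.041 (without KO 1) to 0.082 for Mettl3, from -0.016 (without KO 1) to 0.16 for Alkbh5, where it was -0.0045 without WT 3, from -0.13 to 0.0025 (without KO 3) for Ythdf1, from -0.049 to 0.021 (without KO 3) for Ythdc1 and from -0.010 (without WT 3) to 0.080 for Ythdc2. That of Mettl3 was -0.071 when KO 1 and WT 2 were both left out. The cause of these changes of direction was not tested. Mettl14, Wtap, Fto, Ythdf2 and Ythdf3 kept their direction in all 14 alternatives, but not their size: over single libraries left out, the log2 fold change ran from -0.18 (without WT 3) to -0.066 (without WT 2) for Mettl14, from -0.11 (without WT 1) to -0.012 (without WT 3) for Wtap, from 0.038 (without KO 3) to 0.13 (without KO 2) for Fto, from 0.059 to 0.10 for Ythdf2 and from -0.074 (without KO 1) to -0.0048 (without KO 2) for Ythdf3. Leaving out each library gave log2 differences from -0.0018 to 0.17 in the ratio of Wtap to Mettl14, from -0.098 to 0.075 in that of Alkbh5 to Fto and from 0.066 to 0.23 in that of Mettl3 to Mettl14. The list medians moved as well over single libraries left out: from -0.048 to 0.042 for the partners of the writer complex, from -0.072 (without KO 2) to -0.040 for the other methyltransferases, whose median was 0.0091 without KO 1 and WT 2 together, from -0.020 to 0.022 for readers outside the YTH family, from -0.014 to 0.033 for partners of YTH proteins and from 0.032 (without WT 2) to 0.076 for methyl donor supply.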
